A study of Rattus norvegicus with 48 samples.

Results

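The Slc genes encode the solute carriers, and 178 of them could be followed in rat kidney across 4 strains and 3 days of an indole-3-carbinol course. A gene was taken when a probe set carried a single gene symbol that opens with Slc, a family number, a letter and a member number, and each gene was read from its brightest probe set by the mean of the 48 arrays. The table held 185 such symbols among its 7589 named genes, 7 of them are not analysed here, and all 178 matched rat RefSeq by their Entrez identifier. Slc7a12 alone had 2 probe sets, which are compared further on. By family number the genes fell into 14 role groups, the largest being 43 carriers of amino acids and peptides, 19 exchangers of bicarbonate, protons and anions, 15 mitochondrial carriers and 15 carriers of organic anions and cations. A group name need not describe each member. The creatine carrier Slc6a8 and the serotonin carrier Slc6a4 are counted with the amino acid carriers, and Slc66a2 of the PQ-loop family with the lipid carriers.

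Solute carriers move ions, sugars, amino acids, organic acids, metals and nucleosides across cell and organelle membranes without splitting ATP themselves. Along the nephron they carry out most reabsorption and secretion: proximal tubule cells take back glucose, amino acids, phosphate and bicarbonate and secrete drugs, while distal segments use other members for salt, acid and urea. Indole-3-carbinol is a compound of cabbage-family vegetables whose acid products activate the aryl hydrocarbon receptor (AhR), a transcription factor that drives Cyp1a1. The compound is also used to switch on transgenes placed behind the Cyp1a1 promoter.

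Male rats of the strains labelled F, L, FL or LF, aged 12 weeks in the sample labels and 12 to 14 weeks in the protocol, were compared. The labels give no meaning for the strain letters and mention no transgene. Rats of day 7 and day 10 had been gavaged with indole-3-carbinol at 100 mg per kg and day for that many days, and day 0 rats only with its vegetable oil carrier, for a time that the labels do not give. Each of the 12 groups had 4 arrays of kidney RNA, from 8 rats a group in the protocol. Whether an array held 1 rat or a pool is not stated, so p-values measure the spread between these samples, which may be partly technical. Kidney tissue is a mixture, and fewer cells of a type and less RNA per cell cannot be told apart in it.

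All values are log2 signals, so a difference of 1 is a doubling, and the level of one probe set cannot be set against that of another. Arrays of a group correlated at 0.979 to 0.992. The 5 arrays of narrowest spread of signals were taken by rank: FL day 10 replicate 4, F day 10 replicate 4, FL day 7 replicates 3 and 4, and LF day 7 replicate 3. Their spread ran from 2.287 to 2.349 and that of the next array, L day 0 replicate 4, was 2.357, so no gap sets them apart. None is a day 0 array, so leaving them out thins the treated groups only. The kidney markers Umod (12.53 to 13.02) and Lrp2 (11.59 to 12.08) were high on all arrays. Averaged over the strains, Cyp1a1 exceeded its day 0 level by 1.33 ± 0.22 (SE) at day 7 and by 1.74 ± 0.22 at day 10 (limma, adjusted p = 8.83e-05 and 9.14e-07). The rise was uneven between arrays. Cyp1a1 ran from 3.57 to 5.15 at day 0 (median 4.29), from 4.47 to 8.88 at day 7 (median 5.42) and from 4.35 to 7.60 at day 10 (median 6.13), so the ranges overlapped. Of 10 tubular injury markers, 6 rose at day 7 and 7 at day 10. The per-array mean of that list ran from 5.83 to 6.49 at day 0, from 6.09 to 7.34 at day 7 and from 6.25 to 7.70 at day 10.

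The first question was which carriers changed under the course when the 4 strains were averaged. At day 7, 2 of the 178 genes rose and 9 fell, and at day 10 none rose and 9 fell, all by less than 0.5 on the log2 scale. Over the whole table of 8797 probe sets, 4.94% were called at day 7 (1.19% higher, 3.75% lower) and 2.41% at day 10 (1.26% higher, 1.15% lower). Among the carriers these shares were 6.18% at day 7 and 5.06% at day 10. The median difference of the carriers was -0.01 at day 7, beside -0.03 over all probe sets. At day 10 it was -0.02, beside -0.003 over all. Called here means a Benjamini-Hochberg adjusted p under 0.05 in the limma fit over all probe sets, and each difference compares the means of 16 arrays with 16, given with its standard error.

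**Figure D1:**
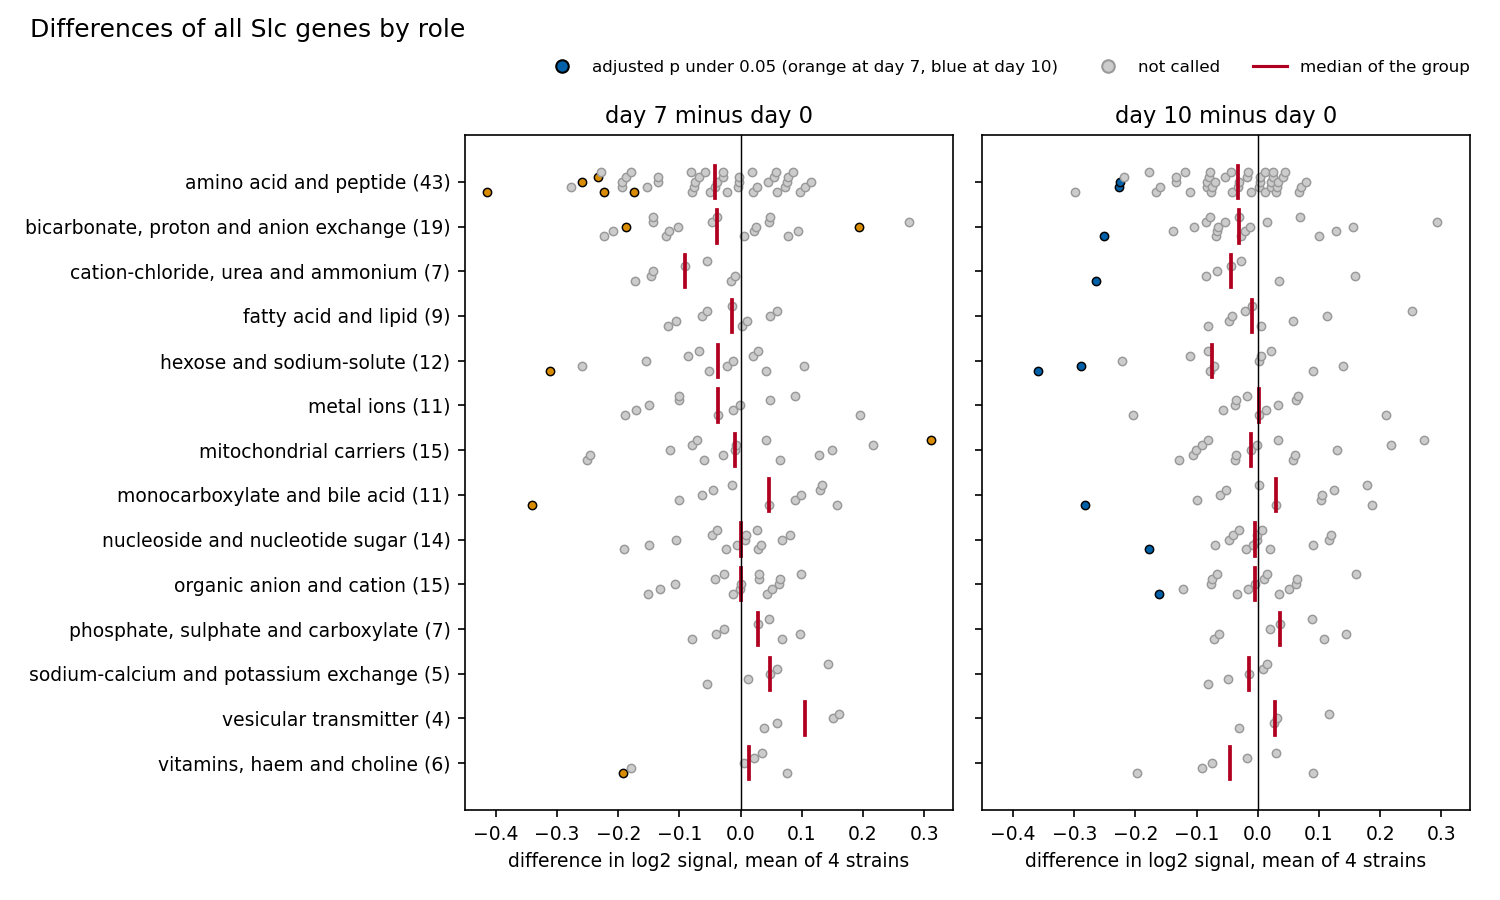
Differences in log2 signal against day 0, mean of the 4 strains, for all 178 Slc genes in 14 role groups (number of genes in brackets); left, day 7, right, day 10. Each point is a gene, coloured points passed the adjusted threshold, and the red bar is the median of the group. Called genes lie mostly left of 0, and 5 of the 11 at day 7 are carriers of amino acids and peptides.

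The split between rises and falls moved with the scaling of the arrays. At day 7, 18.2% of the called carriers were higher. A further quantile normalization gave 10 higher and 7 lower, against 8 and 6 with array medians subtracted, and 10 and 4 with the array spread as a covariate. At day 10 the corresponding splits were 5 and 13, 2 and 13, and 9 and 16, and without the 5 arrays of narrow spread 3 and 3. With the replicate number of the arrays as a block, 5 rose and 23 fell at day 7, and 2 rose and 12 fell at day 10. Splits over all probe sets moved too. At day 7 they went from 105 higher and 330 lower in the fit above to 267 and 367 with quantile normalization. They were 256 and 310 with medians subtracted, 268 and 225 with the covariate and 189 and 787 with the block. At day 10 they went from 111 and 101 to 206 and 201, 180 and 177, and 272 and 236 in that order. The block gave 161 and 136, and leaving out the narrow arrays 165 and 65. The genes called at day 7 in all of these settings and with the dimmest 20% of probe sets left out were 5: Slc25a34 as a rise, and Slc16a7, Slc2a13, Slc6a8 and Slc7a12 as falls. At day 10 they were 2, Slc2a13 and Slc4a5, both falls. The number called at day 7 ran from 5 without F day 7 replicate 4 to 22 without L day 0 replicate 4, and at day 10 from 5 without F day 10 replicate 4 to 13 without LF day 10 replicate 3.

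The promoters of 3 genes are shown: Slc2a13 for the fall kept in all settings at both days, Slc25a34 for the rise kept in all settings at day 7, and Slc6a6 for a fall with the AhR core in its promoter. Each is the 250 bases before the gene start from RefSeq on build GRCr8, 5′ to 3′ on the gene's own strand, and capitals mark the AhR core GCGTG read on either strand.
Slc6a6, chr4:125752252-125752501, forward strand: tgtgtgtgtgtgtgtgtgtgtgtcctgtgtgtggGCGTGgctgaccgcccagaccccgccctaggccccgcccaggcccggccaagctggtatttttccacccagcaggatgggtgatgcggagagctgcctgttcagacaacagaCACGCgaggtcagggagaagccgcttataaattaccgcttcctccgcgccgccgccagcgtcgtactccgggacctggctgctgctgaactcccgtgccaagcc
Slc2a13, chr7:124606147-124606396, reverse strand: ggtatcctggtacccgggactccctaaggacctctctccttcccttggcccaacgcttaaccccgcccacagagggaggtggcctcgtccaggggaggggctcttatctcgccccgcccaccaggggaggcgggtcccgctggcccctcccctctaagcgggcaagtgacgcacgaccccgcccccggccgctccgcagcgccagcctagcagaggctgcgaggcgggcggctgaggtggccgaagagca
Slc25a34, chr5:159219893-159220142, reverse strand: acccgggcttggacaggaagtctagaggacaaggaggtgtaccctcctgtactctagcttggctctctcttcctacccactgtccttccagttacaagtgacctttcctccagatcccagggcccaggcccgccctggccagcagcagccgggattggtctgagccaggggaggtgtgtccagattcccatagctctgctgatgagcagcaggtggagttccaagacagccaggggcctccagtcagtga
The core lies in the Slc6a6 stretch at 216 and 104 bases before the gene start and in neither of the others. It was present in 25.9% of 33469 RefSeq promoter stretches of this length, in 53 of the 151 carriers that have one (35.1%), and in 2 of 14 carriers called at day 7 or day 10, Slc6a6 and Slc14a1. The antioxidant element core TGACNNNGC, also read on both strands, was in 10.1% of all stretches, in 24 of the 151 carriers and in 5 of those 14. A match of these letters is a description and not a binding site.

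Of the 43 carriers of amino acids and peptides, 5 fell and none rose at day 7, and 2 fell at day 10. Slc6a8, which brings creatine into the cell, ran from 10.06 to 10.72 over the 16 day 0 arrays (median 10.41), from 9.84 to 10.42 at day 7 (median 10.10) and from 9.79 to 10.49 at day 10 (median 10.17). The ranges overlapped, with most of the treated arrays in the lower part of the day 0 range. It fell by 0.26 ± 0.059 at day 7 (adjusted p = 0.00516) and by 0.23 ± 0.059 at day 10 (adjusted p = 0.0267), and the day 10 call was lost without any one of 6 arrays. Slc6a6, the taurine carrier, ran from 9.32 to 9.82 at day 0, from 9.10 to 9.78 at day 7 and from 8.99 to 9.90 at day 10. Its fall was 0.23 ± 0.065 at both days (adjusted p = 0.0278 and 0.0487). In FL the differences had the other sign, 0.07 ± 0.13 at day 7 and 0.05 ± 0.13 at day 10, beside -0.28 to -0.38 in the other strains over both days, and the F test of strain by day had an adjusted p of 0.944 for this gene. The day 7 call was lost without any one of 4 arrays (F day 7 replicate 4, L day 7 replicate 2, FL day 0 replicate 1 or LF day 7 replicate 3), and the day 10 call without any one of 33.

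Slc7a12, a relative of the light chains of heteromeric amino acid transporters, had the largest fall of the family at day 7. It ran from 9.87 to 11.36 at day 0 (median 10.70), from 9.44 to 10.94 at day 7 (median 10.31) and from 9.19 to 10.96 at day 10 (median 10.55), and the ranges overlapped widely. The fall was 0.41 ± 0.091 at day 7 (adjusted p = 0.00347). At day 10 the difference was -0.30 ± 0.091 (adjusted p = 0.0713). The other probe set of the gene gave -0.31 ± 0.12 at day 7 (adjusted p = 0.130) and did not pass. Slc7a13, which takes up acidic amino acids and cystine in the late proximal tubule, ran from 12.06 to 12.43 at day 0 and from 11.68 to 12.35 at day 7, and fell by 0.22 ± 0.061 (adjusted p = 0.0227). Without F day 7 replicate 4, its lowest day 7 array at 11.68, the adjusted p was 0.052. Slc7a8, a basolateral exchanger of neutral amino acids, fell by 0.17 ± 0.053 at day 7 (adjusted p = 0.0485), a call lost without any one of 32 arrays. The remaining carriers of this group included Slc7a7, the light chain for basolateral exit of cationic amino acids (-0.15 ± 0.072, adjusted p = 0.222), and Slc7a2, a cationic amino acid carrier (-0.19 ± 0.071, adjusted p = 0.102). Slc1a4, a neutral amino acid exchanger, was -0.23 ± 0.088 (adjusted p = 0.128).

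Among 12 hexose and sodium-solute carriers, 1 fell at day 7 and 2 at day 10. Slc2a13, the proton-coupled myo-inositol carrier, ran from 7.04 to 7.75 at day 0, from 6.90 to 7.34 at day 7 and from 6.88 to 7.51 at day 10. In L the groups overlapped (7.35, 7.34, 7.56 and 7.04 at day 0, 7.18, 7.04, 7.34 and 7.01 at day 7), while in FL all 4 day 7 arrays (6.97, 7.08, 7.03 and 7.04) lay below all 4 day 0 arrays (7.69, 7.71, 7.22 and 7.36). The fall was 0.31 ± 0.063 at day 7 (adjusted p = 0.00184) and 0.29 ± 0.063 at day 10 (adjusted p = 0.00521), and no single array changed either call. Slc2a5, the fructose carrier, ran from 8.14 to 8.94 at day 0 and from 7.54 to 8.69 at day 10. It fell by 0.36 ± 0.091 at day 10 (adjusted p = 0.0214), a call lost without the 5 arrays of narrow spread, and was -0.26 ± 0.091 at day 7 (adjusted p = 0.0907). Slc2a1, the widespread glucose carrier, was -0.07 ± 0.063 and -0.11 ± 0.063 at the 2 days, and Slc2a2, through which glucose leaves the proximal tubule cell, was -0.05 ± 0.072 and 0.09 ± 0.072; none of these passed.

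**Figure D2:**
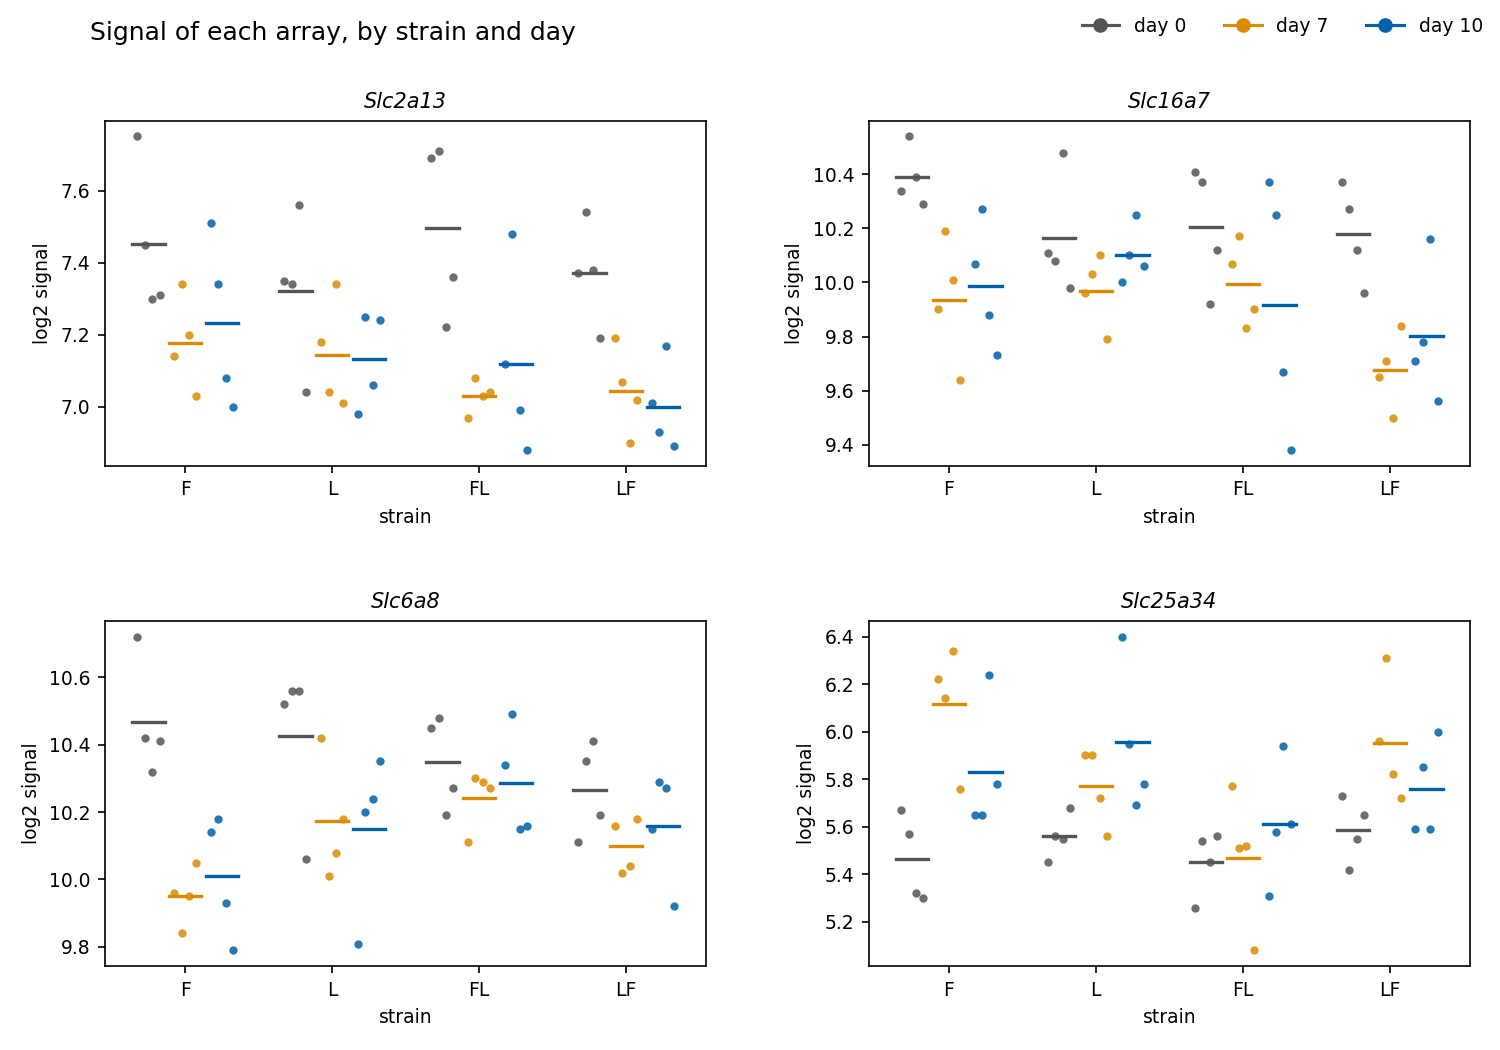
Log2 signal of each of the 48 arrays for Slc2a13, Slc16a7, Slc6a8 and Slc25a34, by strain and day; within a group the points run from replicate 1 to 4 and the bar is the mean. Means of Slc2a13 and Slc16a7 lie below day 0 at both days in each strain, and the Slc6a8 and Slc25a34 shifts are widest in F at day 7.

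In the group of 11 monocarboxylate and bile acid carriers, Slc16a7 fell at both days and no other gene passed. Slc16a7, a carrier of lactate, pyruvate and ketone bodies, ran from 9.92 to 10.54 at day 0 (median 10.28), from 9.50 to 10.19 at day 7 (median 9.90) and from 9.38 to 10.37 at day 10 (median 10.03). In LF the 4 day 7 arrays (9.65, 9.71, 9.50 and 9.84) lay below the 4 day 0 arrays (10.37, 10.27, 10.12 and 9.96), while in L and FL the ranges overlapped. The fall was 0.34 ± 0.079 at day 7 (adjusted p = 0.00595) and 0.28 ± 0.079 at day 10 (adjusted p = 0.0414). The day 10 call was lost without any one of 20 arrays. Its relative Slc16a1 was 0.13 ± 0.13 and 0.19 ± 0.13 (adjusted p = 0.601 and 0.813), and the bile acid carrier Slc10a1 was 0.16 ± 0.067 and 0.18 ± 0.067 (adjusted p = 0.171 and 0.228).

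Of 19 exchangers of bicarbonate, protons and anions, 1 rose and 1 fell at day 7, and 1 fell at day 10. Slc4a5, a sodium bicarbonate cotransporter, ran from 5.37 to 6.01 at day 0, from 5.15 to 5.95 at day 7 and from 4.90 to 6.24 at day 10. In F all 4 arrays of day 7 (5.44, 5.39, 5.44 and 5.32) and of day 10 (5.33, 5.26, 5.43 and 5.36) lay below those of day 0 (5.71, 5.69, 5.73 and 5.72). It fell by 0.19 ± 0.057 at day 7 (adjusted p = 0.0458, lost without any one of 25 arrays) and by 0.25 ± 0.057 at day 10 (adjusted p = 0.00686). Slc26a1, a sulphate and oxalate exchanger, rose by 0.19 ± 0.058 at day 7 (adjusted p = 0.0436), a call lost without any one of 23 arrays, and was 0.16 ± 0.058 at day 10 (adjusted p = 0.221). Slc26a4, the chloride bicarbonate exchanger pendrin of intercalated cells, ran from 8.02 to 8.82 at day 0, from 8.03 to 9.16 at day 7 and from 8.33 to 9.17 at day 10. Its difference was 0.28 ± 0.086 and 0.29 ± 0.086 and stayed just short of the threshold at both days (adjusted p = 0.0518 and 0.0563). It passed at both days under each of the 6 other settings tried, from the replicate block to leaving out dim probe sets. The anchors Slc9a3 (sodium proton exchange in the proximal tubule), Slc4a4 (basolateral bicarbonate exit) and Slc4a1 (the exchanger of acid-secreting intercalated cells) were -0.12 ± 0.055, 0.02 ± 0.058 and 0.05 ± 0.071 at day 7, and none was called at either day.

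The mitochondrial carriers held the clearest rise. Slc25a34, a mitochondrial inner membrane carrier, ran from 5.26 to 5.73 at day 0, from 5.08 to 6.34 at day 7 and from 5.31 to 6.40 at day 10. At day 7 all 4 arrays of F and 3 of 4 in L and in LF lay above the day 0 range of their strain, and in FL 1 of 4 did. It rose by 0.31 ± 0.078 at day 7 (adjusted p = 0.0130) and was 0.27 ± 0.078 at day 10 (adjusted p = 0.0506). The other 14 mitochondrial carriers were not called, among them Slc25a30 (-0.25 ± 0.078 at day 7, adjusted p = 0.0564). Slc25a30 was called at day 7 under 3 of the 6 other settings (the replicate block, a second quantile normalization and the dimmest probe sets left out). Slc25a22, a mitochondrial glutamate carrier, was called under 3, Slc25a20, the carnitine-acylcarnitine carrier, under 2, and Slc25a47 under the block alone. These 3 lie outside the rule for named genes and were chosen after their calls were seen. Slc25a34 itself was called at day 10 under 4 of the 6.

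The 4 remaining falls came from single members of other groups. Slc14a1, the urea carrier of red cells and descending vasa recta, ran from 6.05 to 6.71 at day 0 and from 5.66 to 6.79 at day 10, and fell by 0.26 ± 0.067 at day 10 (adjusted p = 0.0215); L day 10 replicate 4, at 6.79, lay above all day 0 arrays. Slc29a1, an equilibrative nucleoside carrier, ran from 6.99 to 7.45 at day 0 and from 6.76 to 7.29 at day 10, and fell by 0.18 ± 0.044 (adjusted p = 0.0177). Slc22a17, a receptor for lipocalin 2, fell by 0.16 ± 0.046 at day 10 (adjusted p = 0.0461), a call lost without any one of 25 arrays, with 0.0075 in FL and -0.08 to -0.32 in the other strains. Slc49a4, a lysosomal membrane carrier, fell by 0.19 ± 0.059 at day 7 (adjusted p = 0.0489), a call lost without any one of 34. Without the 5 arrays of narrow spread, 6 of the day 10 falls were no longer called: Slc2a5, Slc16a7, Slc14a1, Slc6a6, Slc6a8 and Slc22a17.

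**Figure D3:**
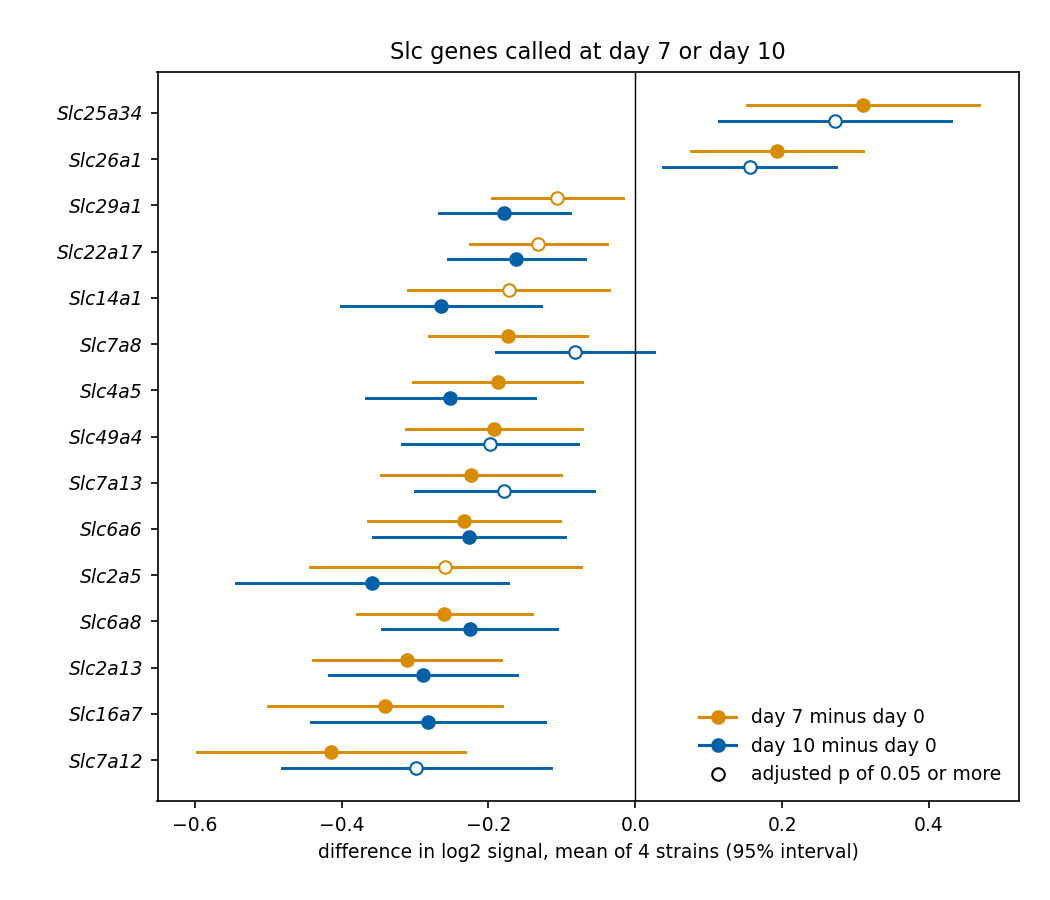
Difference in log2 signal from day 0, mean of 4 strains, for the 15 Slc genes called at day 7 (orange) or day 10 (blue); lines are 95% intervals and open points have an adjusted p of 0.05 or more. The differences run from -0.41 for Slc7a12 to 0.31 for Slc25a34, and both days share the same day 0 arrays.

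Of the fixed anchors of nephron segments, Slc14a1 was the 1 called at either day. Slc34a1, the phosphate cotransporter of the proximal brush border, was -0.08 ± 0.035 at day 7 with a 95% interval of -0.15 to -0.01 (adjusted p = 0.179), and it was called at day 10 after a second quantile normalization. Slc22a6 and Slc22a8, the basolateral uptake carriers for organic anions, were 0.07 ± 0.036 and -0.001 ± 0.049 at day 7. Slc22a6 was called at day 7 under 3 of the 6 other settings: a second quantile normalization, array medians subtracted and the array spread as a covariate. Slc22a2, the organic cation carrier, was -0.11 ± 0.049. Slc13a3, a dicarboxylate carrier, was 0.03 ± 0.047, and Slc12a3, the thiazide-sensitive cotransporter of the distal convoluted tubule, was -0.09 ± 0.050. The iron exporter Slc40a1 and the metal carriers Slc39a8 and Slc30a1 were -0.15 ± 0.083, -0.19 ± 0.078 and -0.01 ± 0.057. None of the 11 metal carriers, the 9 fatty acid and lipid carriers, the 7 phosphate, sulphate and carboxylate carriers, the 5 sodium-calcium exchangers or the 4 vesicular carriers was called at either day. With the replicate number as a block, the metal carrier Slc39a8 and the vesicular monoamine carrier Slc18a1 (0.16 ± 0.055, adjusted p = 0.0775 without the block) were called at day 7. Slc39a8 was called at day 10 and the zinc carrier Slc30a2 at day 7 under the same 3 settings as Slc22a6. In all, 27 carriers that had not passed at day 7 did so under 1 or more of the 6 other settings, and 17 at day 10. The same count over all probe sets was not made. Calls over all probe sets rose under several settings too, at day 7 from 105 higher and 330 lower to 189 and 787 with the block. The 27 and 17 therefore do not set the carriers apart. By the unadjusted p, 46 of the 178 were under 0.05 at day 7 and 33 at day 10. The share of all probe sets under that unadjusted cut-off was not counted, here or for the unadjusted counts below. Those counts therefore cannot set the carriers apart from the whole table.

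Marker genes of other cells moved at the same days. Of collecting duct markers, 6 of 11 fell at day 7, and at day 10 4 fell and 1 rose (Scnn1a, a subunit of the epithelial sodium channel, by 0.32 ± 0.078, adjusted p = 0.0169), with a per-array list mean of 7.45 to 8.22 at day 0, 7.39 to 7.97 at day 7 and 7.26 to 8.03 at day 10. Of proximal tubule markers 5 of 12 fell at day 7 and 1 at day 10, with list means of 10.9 to 11.2, 10.8 to 11.1 and 10.8 to 11.2. Thick ascending limb markers fell in 3 of 7 at day 7 and 1 at day 10, and smooth muscle markers rose in 2 of 6 and 3 of 6. Distal convoluted tubule markers fell in 2 of 5 at day 7 and 1 at day 10, endothelial markers in 2 of 5 and none, and podocyte markers in 1 of 5 and none. Of 8 leukocyte markers 3 fell at day 7, and 1 fell and 1 rose at day 10. The endothelial list, beside which Slc14a1 of the vasa recta stands, had array means of 7.89 to 8.35 at day 0, 7.77 to 8.21 at day 7 and 7.65 to 8.25 at day 10. Their part in the falls of the carriers was not tested. Of other transport genes, 2 of 13 organic anion polypeptides (Slco) and 1 of 26 ABC transporters fell at day 7 and none rose, 2 of 10 aquaporins fell at each day, and 1 of 5 sodium pump subunits rose at day 7.

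Day 10 and day 7 were then compared directly. No carrier was called, 15 had an unadjusted p under 0.05, and 0.114% of all probe sets were called. Within single strains few carriers passed. In F at day 7, 2 were called beside 0.671% of all probe sets. Slc6a8 read 10.72, 10.42, 10.32 and 10.41 on the F day 0 arrays and 9.96, 9.84, 9.95 and 10.05 on the F day 7 arrays, which did not overlap, and fell by 0.52 ± 0.12 (adjusted p = 0.0167). Slc25a34 read 5.67, 5.57, 5.32 and 5.30 at day 0 and 6.22, 6.14, 6.34 and 5.76 at day 7, also without overlap, and rose by 0.65 ± 0.16 (adjusted p = 0.0293). The Slc6a8 call was lost without any one of 4 arrays and the Slc25a34 call without any one of 5. In LF at day 7, Slc7a8 was the 1 gene called (2.26% of all probe sets): it fell by 0.38 ± 0.11 (adjusted p = 0.0492), from 9.66, 9.65, 9.55 and 9.34 to 9.34, 9.05, 9.08 and 9.23, where the groups touch at 9.34. That call was lost without any one of 34 arrays, and 14 LF carriers were called with the replicate number as a block. The share of all probe sets called in LF under the block was not counted, so the 14 do not set the carriers apart.

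No carrier passed in F at day 10 (0.239% of all probe sets), in L at day 7 or day 10 (0.0114% at each), in FL at day 7 (0.159%) or day 10 (0.0909%), or in LF at day 10 (0.887%). The numbers with an unadjusted p under 0.05 were 25 in F at day 10, 7 and 12 in L, 12 and 9 in FL, and 21 in LF at day 10. The difference of the course between strains was tested itself by a moderated F test over the 6 strain by day terms. None of the 178 passed, beside 0.193% of all probe sets, and 11 of the 178 had an unadjusted p under 0.05. The smallest p belonged to Slc7a1, a cationic amino acid carrier (adjusted p = 0.299), Slc16a10, a carrier of aromatic amino acids (0.342), and Slc13a2, the citrate and dicarboxylate carrier of the brush border (0.469).

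The second question was how the strains differed without the compound. At day 0, 10 of the 178 carriers differed among the 4 strains by a moderated F test, and 3.43% of all probe sets did. By role they were 3 amino acid carriers (Slc1a4, Slc7a12, Slc38a3), 2 hexose carriers (Slc2a2, Slc2a4), and 1 each of the anion exchangers (Slc26a1), lipid and choline carriers (Slc44a3), mitochondrial carriers (Slc25a21), monocarboxylate carriers (Slc16a10) and organic anion carriers (Slc22a6). With the replicate number as a block 17 were called, and the share of all probe sets under that block was not counted. The signal of a probe set also depends on how its probes match the sequence of a strain, and probe sequences were not used here, so a strain difference is one of signal.

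By pairs at day 0, 3 carriers differed between F and L (1.55% of all probe sets), 6 between FL and L (1.59%), 5 between LF and F (2.11%) and 11 between FL and LF (3.07%). None differed between FL and F (0.0682%) or between LF and L (0.193%), with 15 at an unadjusted p under 0.05 in each. With the replicate number as a block, the F and L pair had 5, the LF and F pair 10, the FL and LF pair 29 and the LF and L pair 1. For these pairs the shares of all probe sets under the block were not counted. At day 0, 16 carriers were called in 1 or more of the F-L, FL-L, LF-F and FL-LF pairs and 0 in the FL-F or LF-L pair. At day 7 these numbers were 19 and 2, and at day 10 17 and 1. The first number of each day pools more pairs than the second, and neither was counted over all probe sets. At day 0 the shares of all probe sets were split in the same way. They were 1.55% to 3.07% in the F-L, FL-L, LF-F and FL-LF pairs, beside 0.0682% in FL-F and 0.193% in LF-L. The pooled counts therefore do not set the carriers apart from the whole table. The pairs share arrays, so these counts are not independent of each other.

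Slc38a3, which takes glutamine into proximal tubule cells and supplies ammonia formation, was lower in F and FL than in L. At day 0 its arrays read 10.11, 10.06, 10.01 and 9.70 in F and 10.69, 10.62, 10.70 and 10.39 in L. In FL they read 10.25, 10.02, 9.96 and 9.79, and in LF 10.27, 10.35, 10.34 and 10.17. All F arrays lay below all L arrays, and F and FL overlapped. The F minus L difference was -0.63 ± 0.13 (adjusted p = 0.00206), 1.55-fold lower. On the separate arrays of day 7 it was -0.84 ± 0.13 (adjusted p = 1.52e-05) and of day 10 -0.93 ± 0.13 (adjusted p = 2.24e-06). Over all days the 12 F arrays ran from 9.58 to 10.11 and the 12 L arrays from 10.39 to 10.85.

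Slc7a12 went the other way. At day 0 its arrays read 10.88, 11.36, 11.05 and 10.67 in F, 9.87, 10.25, 10.36 and 9.91 in L, 11.08, 11.05, 10.89 and 10.92 in FL, and 10.72, 10.10, 10.53 and 10.49 in LF. F and FL lay above L with no overlap, and LF overlapped F and L. F was 0.89 ± 0.18 above L at day 0 (adjusted p = 0.00251), 0.95 ± 0.18 at day 7 (adjusted p = 0.000898) and 1.14 ± 0.18 at day 10 (adjusted p = 5.50e-05). The other probe set of the gene showed a wider gap, with F at 11, 11.22, 11.03 and 10.73 and L at 8.32, 9.01, 8.80 and 8.07 at day 0. There F minus L was 2.45 ± 0.24 (adjusted p = 1.83e-09) at day 0, 2.55 at day 7 and 2.50 at day 10. On that probe set LF at day 0 read 10.62, 8.79, 10.13 and 10.31, of which replicate 2 lay within the L range and the other 3 between L and F. LF was 1.41 ± 0.24 above L at day 0 (adjusted p = 0.00104). On the higher probe set LF passed against L only at day 10, by 0.99 ± 0.18 (adjusted p = 0.00198), where 0.318% of all probe sets were called and Slc7a12 was the 1 carrier among them. Both probe sets had F above L at each day.

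**Figure D4:**
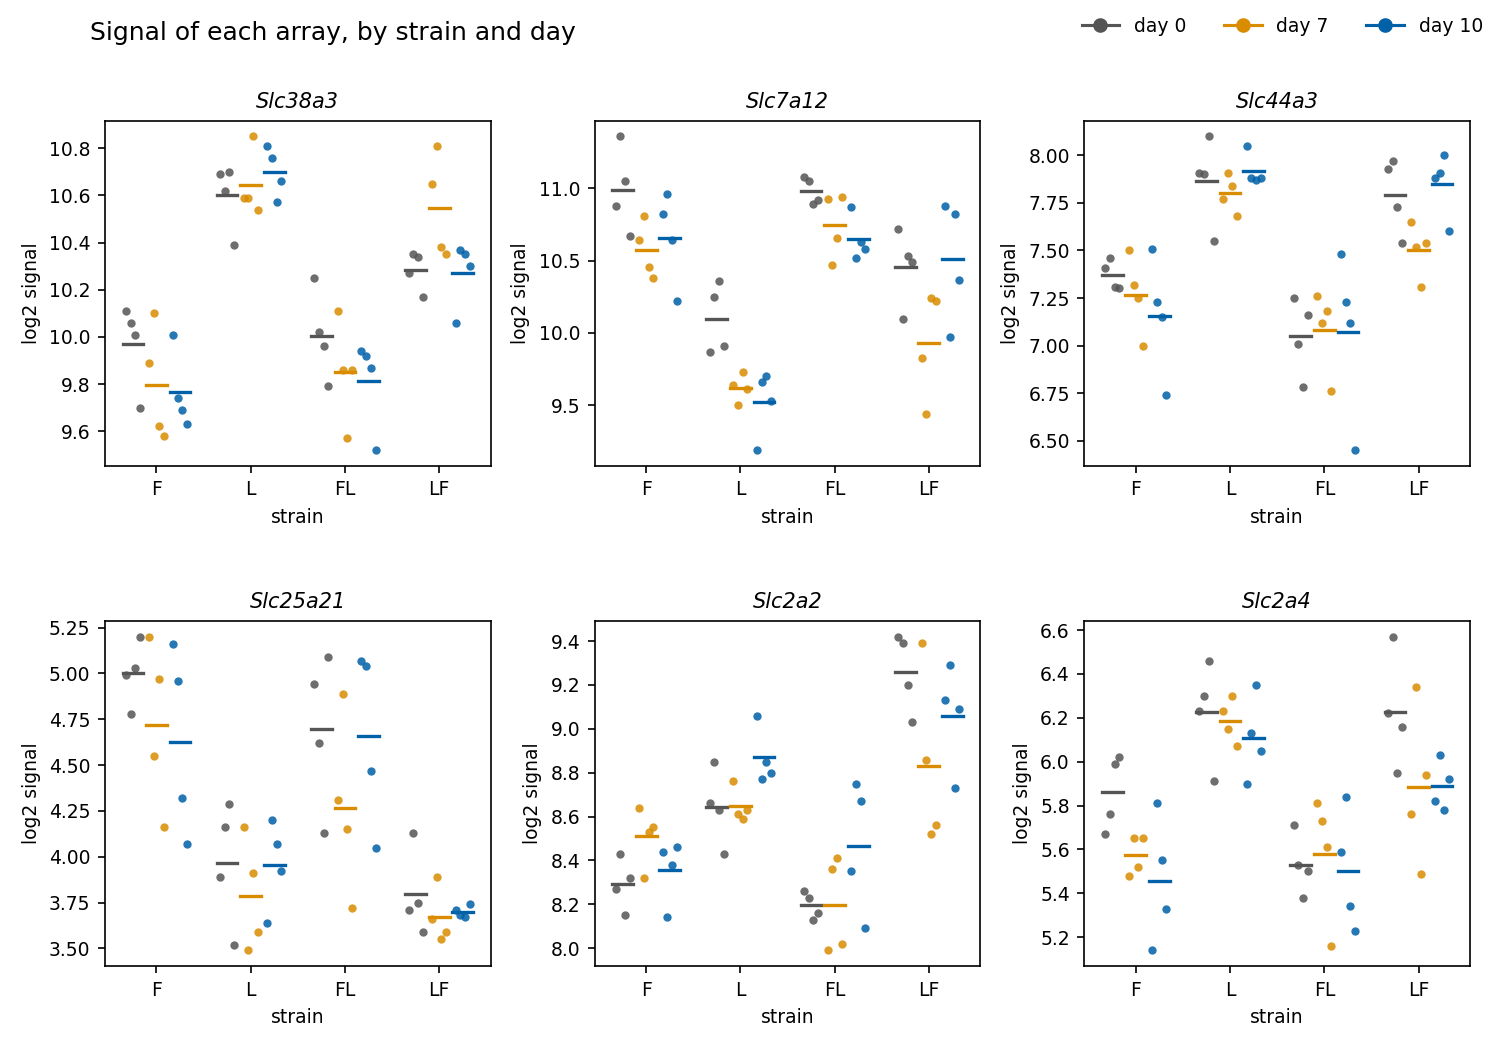
Log2 signal of each of the 48 arrays for 6 Slc genes called between the strains at day 0, by strain and day; within a group the points run from replicate 1 to 4 and the bar is the mean. The F means lie below the L means for Slc38a3, Slc44a3, Slc2a2 and Slc2a4 and above them for Slc7a12 and Slc25a21.

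Slc1a4 was higher in FL than in L and LF. Its day 0 arrays read 7.30, 7.22, 6.89 and 7.05 in FL and 6.16, 6.14, 6.52 and 5.91 in L, with F at 7.01, 6.79, 6.64 and 6.84 and LF at 6.58, 6.54, 6.32 and 5.90. FL and L did not overlap, and FL was 0.93 ± 0.18 higher (adjusted p = 0.00088). The difference was 0.68 ± 0.18 at day 7 (adjusted p = 0.0285) and 0.58 ± 0.18 at day 10, which did not pass.

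The hexose carriers Slc2a2 and Slc2a4 were lower in FL than in LF. Slc2a2 read 8.27, 8.43, 8.15 and 8.32 in F at day 0, 8.66, 8.85, 8.63 and 8.43 in L, 8.26, 8.23, 8.13 and 8.16 in FL, and 9.42, 9.39, 9.20 and 9.03 in LF. All LF arrays lay above every other array of that day. FL was 1.06 ± 0.14 below LF (adjusted p = 2.63e-06), a 2.09-fold difference, and 0.64 ± 0.14 and 0.59 ± 0.14 below it at day 7 and day 10 (adjusted p = 0.0062 and 0.0125). Slc2a4, the insulin-responsive glucose carrier, read 5.71, 5.53, 5.38 and 5.50 in FL and 6.23, 6.30, 6.46 and 5.91 in L, with no overlap. FL minus L was -0.69 ± 0.16 at day 0 (adjusted p = 0.00767) and -0.61 ± 0.16 on both later days (adjusted p = 0.0248 and 0.0294). Without L day 0 replicate 3 the day 0 value had an adjusted p of 0.0613.

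Slc44a3, a choline transporter-like protein, read 7.91, 7.90, 8.10 and 7.55 in L at day 0 and 7.25, 7.01, 6.78 and 7.16 in FL. The groups did not overlap, and FL was lower by 0.81 ± 0.16 at day 0, 0.72 ± 0.16 at day 7 and 0.85 ± 0.16 at day 10, with adjusted p of 0.000954, 0.00472 and 0.00066. Slc25a21, the mitochondrial carrier of oxodicarboxylates, gave low signals: F read 4.99, 4.78, 5.03 and 5.20 at day 0 and LF 3.71, 4.13, 3.75 and 3.59. LF was lower than F by 1.21 ± 0.24 at day 0, 1.05 ± 0.24 at day 7 and 0.93 ± 0.24 at day 10, with adjusted p of 0.00164, 0.00907 and 0.0180. The F arrays spread more at day 7 and day 10, from 4.16 to 5.20 and from 4.07 to 5.16.

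Slc26a1 was 0.50 ± 0.12 higher in LF (9.12, 9.19, 9.12 and 9.12) than in F (8.78, 8.73, 8.56 and 8.49) at day 0, 0.40 ± 0.12 at day 7 and 0.41 ± 0.12 at day 10. The day 0 and day 10 values passed (adjusted p = 0.00999 and 0.0356); without F day 0 replicate 4 the day 0 adjusted p was 0.0594. Slc22a6 was 0.26 ± 0.072 lower in FL than in LF at day 0 (adjusted p = 0.0358). Its differences of -0.16 and -0.11 at the later days did not pass, and the day 0 F test was lost without any one of 10 arrays. Slc16a10 was 0.46 ± 0.077 lower in FL (8.56, 8.42, 8.30 and 8.47) than in LF (8.86, 8.98, 8.96 and 8.79) at day 0 (adjusted p = 0.000109). It showed 0.0025 ± 0.077 at day 7, with a 95% interval of -0.15 to 0.16, and -0.11 ± 0.077 at day 10.

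Each of the 10 carriers was followed on the day 7 and day 10 arrays in the strain pair where it differed most at day 0. The group means of these later days had no part in the choice, but the spread behind the F test came from the arrays of all days. The later p-values use the same spread, so the repeat is not fully independent of the choice. The sign was the same in 9 of 10 at day 7 (all but Slc16a10) and in 10 of 10 at day 10, and 7 passed at each day. For all 302 probe sets called at day 0 and treated the same way, 89.7% kept the sign at day 7 and 95.7% at day 10, and 41.1% and 49.3% passed.

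**Figure D5:**
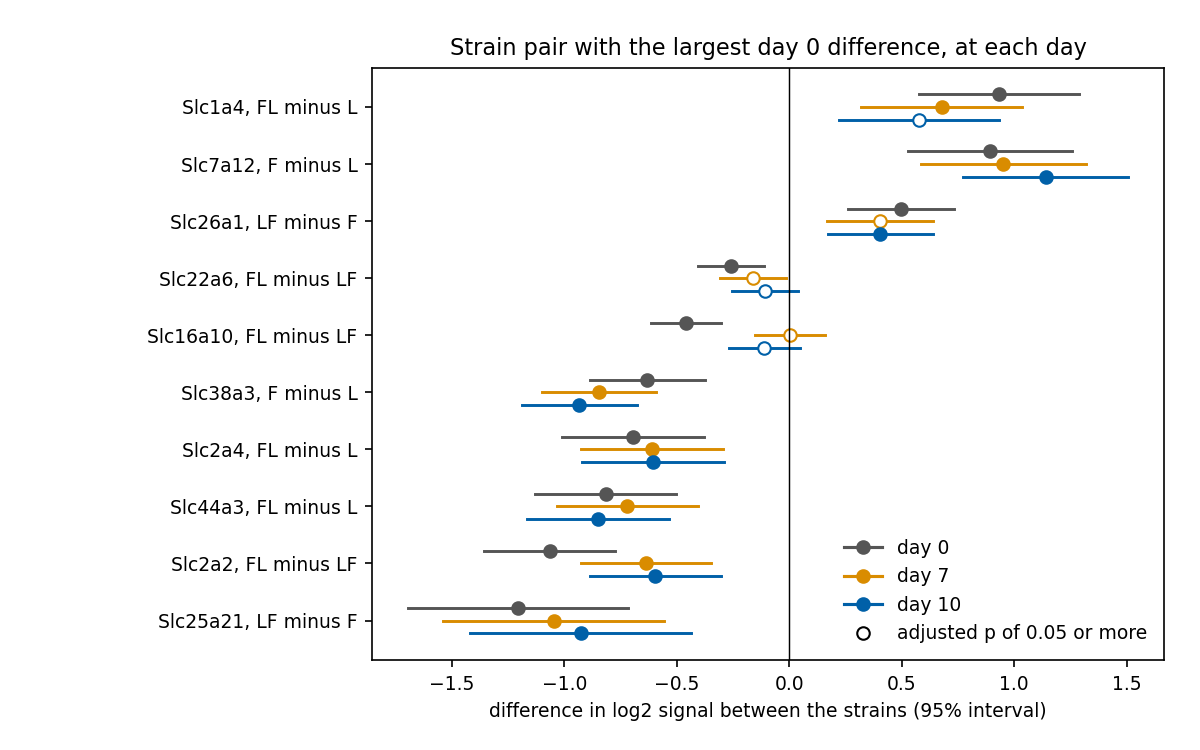
Difference in log2 signal between 2 strains for the 10 Slc genes called at day 0, each in the pair with its largest day 0 difference, at day 0 (grey), day 7 (orange) and day 10 (blue); lines are 95% intervals and open points have an adjusted p of 0.05 or more. Slc38a3 and Slc7a12 keep their gaps at all days, and Slc16a10 is at 0.0025 at day 7.

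Carriers that differed in single pairs at day 0 without passing the F test included Slc37a1, a sugar phosphate carrier of the endoplasmic reticulum (LF minus F -0.47 ± 0.12, adjusted p = 0.0157), and Slc16a1, the widespread lactate carrier (2.01-fold lower in FL than in L, adjusted p = 0.0370). In FL against LF they were Slc46a3, a lysosomal carrier (-0.53 ± 0.15, adjusted p = 0.0358), Slc29a1 (-0.30 ± 0.089, adjusted p = 0.0462), Slc4a5 (0.44 ± 0.11, adjusted p = 0.0188) and Slc4a8, a sodium-driven chloride bicarbonate exchanger (0.28 ± 0.077, adjusted p = 0.0366). Slc16a1 and Slc46a3 each lost the call without any one of 6 arrays, Slc4a8 without any one of 5, and Slc37a1 and Slc4a5 without either of 2.

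F and L were compared again under the course. At day 7, 9 carriers differed (2.14% of all probe sets) and at day 10 11 (3.86%), of which 1 was higher (0.83% of all) and 10 lower (3.04%) in F. Slc7a12, Slc38a3, Slc2a4, Slc2a5, Slc29a1 and Slc6a4 were called at both days. Slc2a5 was 0.68 ± 0.18 lower in F at each day (adjusted p = 0.0339 and 0.0276), Slc29a1 was lower by 0.41 ± 0.089 and 0.35 ± 0.089 (adjusted p = 0.00456 and 0.0155), and Slc6a4, the serotonin carrier, by 0.40 ± 0.096 at each day (adjusted p = 0.0142 and 0.0116). At day 7 alone, Slc5a3, the sodium myo-inositol carrier, was 0.94 ± 0.21 higher in F (adjusted p = 0.00741) and Slc26a4 was 0.62 ± 0.17 higher (adjusted p = 0.0429). At day 10, Slc39a8, a zinc and manganese carrier, was 0.66 ± 0.16 lower in F (adjusted p = 0.0104), a call lost without F day 10 replicate 4, and Slc16a1 was 0.94 ± 0.27 lower (adjusted p = 0.0363). The number called ran from 5 without F day 7 replicate 3 to 11 at day 7, and from 6 without F day 10 replicate 2 to 16 without F day 10 replicate 1 at day 10. With the replicate number as a block, 19 were called at day 10, a setting for which the share of all probe sets was not counted. These later calls are no test of a strain difference in the course, for which the F test above called none. Markers of other cells differed in the same pair. At day 7, 3 of 10 tubular injury markers were higher and 1 lower in F, and 1 proximal tubule and 1 smooth muscle marker were higher. At day 10, 2 smooth muscle and 2 leukocyte markers and 1 each of collecting duct, distal convoluted tubule, podocyte and endothelium were lower in F, and of the injury markers 1 was higher and 1 lower. Their part in the carrier differences was not tested.

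The mixed-letter strains were set against F and L under the course too. At day 7, FL differed from L in 8 carriers (1.93% of all probe sets), LF from F in 5 (2.16%) and FL from LF in 9 (2.46%). At day 10 these numbers were 4 (1.59%), 9 (4.23%) and 6 (2.49%). Injury markers differed in these pairs too: at day 10, 5 of 10 were higher in LF than in F and 4 of 10 lower in FL than in LF, and at day 7 1 was higher in LF than in F and 3 lower in FL than in LF. At day 10, 2 collecting duct, 2 leukocyte, 1 podocyte and 1 smooth muscle marker were also higher in LF than in F. In the remaining cell lists and in FL against L, 0 to 2 markers a list differed. The part of these markers in the carrier counts was not tested. Slc14a1 read 5.86, 5.62, 5.90 and 5.85 in FL at day 7 and 6.54, 6.68, 6.49 and 6.50 in L, with no overlap, and FL was lower by 0.74 ± 0.14 (adjusted p = 0.000517). Slc4a5 was 0.58 ± 0.11 higher in FL than in LF at day 10 (adjusted p = 0.00142), where LF read 4.90, 5.14, 5.40 and 5.06 and FL 6.24, 5.65, 5.34 and 5.59, overlapping by 1 array. Slc28a2, a sodium-coupled purine nucleoside carrier, was 0.86 ± 0.20 higher in LF than in F at day 10 (adjusted p = 0.00689). Slc44a4, Slc66a2 and Slc25a37 lie outside the rule for named genes and were picked because they passed. Slc44a4, a choline transporter-like protein, was 0.47 ± 0.10 higher in the same pair (adjusted p = 0.00328). Slc66a2, of the lysosomal and endosomal PQ-loop family, was 0.51 ± 0.12 higher in FL than in LF at day 7 (adjusted p = 0.00695). Slc25a37, which carries iron into mitochondria, was 0.36 ± 0.093 lower in FL than in L at day 7 (adjusted p = 0.0285).

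FL differed from F at day 7 in 2 carriers (0.659% of all probe sets) and at day 10 in none (0.0227%). At day 7 they were Slc22a24, of the organic anion carriers (-0.74 ± 0.17, adjusted p = 0.0309), and Slc25a34 (-0.65 ± 0.16, adjusted p = 0.0359), which read 5.77, 5.51, 5.52 and 5.08 in FL and 6.22, 6.14, 6.34 and 5.76 in F. Slc22a24 was likewise named after its values were seen. LF differed from L at day 7 in none (0.136%). The unadjusted p was under 0.05 for 9 carriers both in that pair and in FL against F at day 10. Of cell type markers between F and L at day 0, none of 12 proximal tubule, 7 thick ascending limb or 11 collecting duct markers was called, and 1 of 6 smooth muscle, 1 of 6 adipose and 1 of 10 tubular injury markers were lower in F. The smooth muscle list had array means of 6.65 to 6.77 in F, all below the 6.79 to 7.16 of L, with a median difference of -0.34 over its members. The endothelial list had a median difference of -0.22, and its array means overlapped (8.03 to 8.16 in F, 8.02 to 8.35 in L). The per-array mean of the proximal list had its extremes at 11.01 and 11.12 in F and at 10.91 and 11.11 in L. For FL and LF at day 0, the tubular injury list had array means of 5.83 to 6.18 in FL and 6.21 to 6.49 in LF. The leukocyte list had 4.99 to 5.18 in FL and 5.19 to 5.38 in LF. These ranges did not overlap, and those of the other cell lists did. Their part in the carrier differences of this pair was not tested.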

How the data were processed

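Total RNA of rat kidney (1 µg, depleted of ribosomal RNA) was measured on 48 whole-transcript arrays. The deposited table holds log2 signals of 8797 probe sets; per the submitters' processing notes the tools included RMA and limma, with no version, and per the labels' protocols sense targets were hybridised. Values ran from 1.04 to 14.02 and array medians from 5.66 to 6.06, with 0 missing. Genes were named from the platform annotation (7603 probe sets with 1 symbol, 409 with several, 785 with none).

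A linear model with a mean for each of the 12 groups was fitted to the 48 arrays with limma 3.58.1 in R 4.3.3 (36 residual and 3.69 prior degrees of freedom), with Benjamini-Hochberg adjustment over all probe sets at 0.05; intervals are 95% intervals for the single gene. Alternatives were the replicate number as a block, a second quantile normalization, subtracted array medians, the array spread (SD over probe sets) as a covariate, 5 narrow arrays or the dimmest 20% of probe sets left out, and each array or replicate number left out.

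Replicate numbers 1 to 4 close the array titles, with 12 arrays to each number, and the titles do not say what a number stands for. Deviations from group means correlated at 0.094 on average between arrays of one number and at -0.031 between numbers, and 40.9% of 264 same-number pairs were above 0.1. The 4 deviations of a group add up to 0, so the second value largely follows from the first and is no separate contrast. The rule for the genes named took the largest called changes per comparison, fixed nephron anchors and the smallest p-values in each role group. The members and lists were chosen with earlier results of these data known. The fitting script was tested on simulated data. The number of arrays limits the precision.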

Additional observations from a re-analysis of the deposited data

Results flagged for a closer look

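Among the 23 carriers whose array values the text draws on, 276 groups of 4 arrays were searched for an array far from the other 3, by the gap to its nearest neighbour over the range of the group (Dixon's 95% value). There were 15 such arrays, 5.43% of the groups, and chance alone gives about 1 in 20.

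High arrays were Slc14a1 in L day 10 replicate 4 (6.79, others 6.08 to 6.19), Slc16a10 in FL day 7 replicate 3 (8.84), Slc22a6 in FL day 7 replicate 1 (11.42), Slc26a1 in LF day 0 replicate 2 (9.19, the others all 9.12), and Slc38a3 in L day 7 replicate 3 (10.85). Slc2a5 was high in replicate 1 of both F day 0 (8.64) and F day 10 (8.23). Slc44a3 was high in L day 10 replicate 1 (8.05) and Slc49a4 in F day 0 replicate 4 (8.57).

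Low arrays were Slc1a4 in LF day 7 replicate 1 (5.56, others 6.08 to 6.10), Slc38a3 in FL day 10 replicate 4 (9.52), Slc49a4 in F day 10 replicate 4 (7.84), Slc6a8 in L day 0 replicate 4 (10.06, others 10.52 to 10.56) and in FL day 7 replicate 1 (10.11), and Slc7a13 in L day 10 replicate 4 (12.10).

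Slc16a10 moved in opposite directions in 2 strains: all FL arrays of day 7 lay above those of day 0, and all LF arrays below. The moderated F test of strain by day for this gene had an adjusted p of 0.342 over all probe sets and did not pass.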

How the results depend on the processing

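Of 71 calls of single genes in the comparisons, 50 kept the call under the 6 other settings and 34 lost it without some single array. No call with a sign changed direction in any fit, while the 10 calls of the strain F test at day 0 have no direction. The median difference over all probe sets stayed within 0.1 under each scaling, but at day 7 its sign changed. It was -0.029 without rescaling, 0.0055 with quantile normalization, 0.028 with medians subtracted and 0.0060 with the covariate. For the carriers these day 7 medians were -0.013, 0.022, 0.044 and 0.010, a shift on the scale of their median absolute difference of 0.068. At day 10 the carrier median was -0.02 in each of these fits. With the replicate number as a block, called carriers numbered 28 at day 7, 14 at day 10, 1 in FL and 14 in LF at day 7, 5 for F-L, 10 for LF-F, 1 for LF-L and 29 for FL-LF at day 0, 19 for F-L at day 10 and 17 in the strain F test. A second quantile normalization gave 17 and 18 at day 7 and day 10, 6 and 1 in F, 11 and 4 in LF, 8 (F-L), 15 (LF-F), 2 (LF-L) and 21 (FL-LF) at day 0, 23 in the strain F test and 1 in the strain by day F test. Subtracted array medians gave 15 at day 10, 1 in F at day 10, 1 in FL at day 7, 4 in LF at each day, 9 (F-L), 11 (LF-F) and 1 (LF-L) at day 0 and 18 in the strain F test. The array spread as a covariate gave 25 at day 10, 10 and 2 in F, 4 and 6 in LF, 10 (F-L), 15 (LF-F), 2 (LF-L) and 22 (FL-LF) at day 0, 14 for F-L at day 7, 23 in the strain F test and 2 in the strain by day F test. Without the 5 narrow arrays the counts were 0 in LF at day 7 and 5 (F-L), 8 (LF-F), 1 (LF-L) and 19 (FL-LF) at day 0, and without dim probe sets 1 for LF-L. With the covariate, Slc12a2 at day 7 turned from -0.0088 to 0.13 (adjusted p = 0.00873). Counts over all probe sets under these settings are given further above for the means of strains alone. The cause of these shifts was not tested.

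Leaving out single arrays gave 5 to 22 at day 7, 5 to 13 at day 10, 0 to 2 in F at day 7, 0 to 2 in FL and in LF at day 7, and, at day 0, 2 to 5 (F-L), 4 to 7 (FL-L), 3 to 6 (LF-F), 0 to 1 (LF-L) and 6 to 17 (FL-LF). It gave 5 to 11 and 6 to 16 for F-L at day 7 and day 10, and 8 to 11 in the strain F test. Leaving out a replicate number (12 arrays) gave 1 to 13 at day 7, 0 to 6 at day 10, 0 in F, 0 to 1 in FL and 0 to 7 in LF at day 7. At day 0 it gave 1 to 4 (F-L), 2 to 7 (FL-L), 2 to 4 (LF-F) and 2 to 17 (FL-LF), and for F-L 2 to 6 at day 7 and 4 to 8 at day 10, with 3 to 15 in the strain F test. With 4 arrays a group, the standard error of the Slc6a8 difference at day 7 was 0.12 within F, beside 0.059 in the mean of the strains.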
